A study of Homo sapiens with 65 samples.

Results

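The 55 genes described here encode proteins of mitosis and chromosome segregation: the kinase and cyclins that start mitosis, the spindle checkpoint, kinetochore and spindle proteins, mitotic kinesins, condensin and the proteins of cytokinesis. They were selected on the counts of HAS2 knockout and wild-type heart organoids at day 7.5, where proliferation genes were lower in the knockout. The values of that comparison chose the genes and are given below as a description, with no test. All 55 were found among the 58735 gene rows of the count table.

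The data come from left-ventricular cardioids, self-organising heart-like aggregates grown from the human induced pluripotent stem cell line WTC-11. HAS2 encodes an enzyme that makes hyaluronan, a large sugar polymer of the extracellular matrix, and the study removed hyaluronan in 2 ways. Wild-type cardioids (WT) were compared with cardioids of clones labelled HAS2-KO (KO), and cardioids of genotype WT were left untreated or given hyaluronidase, an enzyme that cuts hyaluronan. RNA of 8 pooled cardioids per library was read from the 3′ end of each transcript.

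The genotype experiment held 41 libraries. WT had 5 libraries at day 1.5, 6 at day 2.5, 6 at day 4.5 and 3 at day 7.5, from lines named WT, WT_TU, cl43_WT_UT and TNT2. KO had 6, 6, 6 and 3 libraries at the same days, from clones cl4, cl14, cl46 and cl51, and the day 7.5 libraries came from cl4 and cl14 only. The enzyme experiment held 24 libraries in groups of 3, with 1 library per group from each of the lines named TNNI1, WT and TNNT2, which carry the replicate numbers 1, 2 and 3. Untreated cardioids were collected at days 2.5, 4.5 and 7.5. Cardioids given the enzyme from day 1.5 (early enzyme) were collected at the same days, and those given it from day 2.5 (late enzyme) at days 4.5 and 7.5; in each case the labels give treatment up to collection. The labels state biological replicates but not that each library of a line came from its own differentiation, so p-values measure the spread between these libraries. Clone cl4 gave KO libraries R1, R2 and R3 at days 1.5 to 4.5, and R2 and R3 at day 7.5. Libraries of the same clone or line entered the tests as separate replicates. The main fit of the enzyme experiment did not include the line.

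In a dividing cell, cyclin A and cyclin B activate CDK1, and the active kinase drives chromosome condensation and spindle assembly. Kinetochores then attach chromosomes to microtubules, the spindle checkpoint holds the anaphase-promoting complex until every chromosome is attached, and the chromosomal passenger complex corrects wrong attachments and guides cytokinesis. Most of these genes are transcribed late in the cell cycle and shut off in resting cells through promoter elements bound by the DREAM and MuvB complexes, so their RNA follows the number of cycling cells. Cardiac progenitors divide rapidly and slow their division as they mature into beating cardiomyocytes.

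Promoter sequences show what these genes share apart from their counts. The RefSeq promoter table (build GRCh38.p14, 250 bases before to 50 bases after each gene's start) held 48 of the 55 genes, and AURKA, BIRC5, FOXM1, RACGAP1, TPX2, TTK and UBE2C had no entry. The letters of the cell cycle homology region (CHR), TTTGAA or TTTAAA on either strand, were found in 42 of 48 windows (87.5%), against 24.3% of all 27305 windows of that length. CCAAT, the letters of the NF-Y box, was found on either strand in 37 of 48 windows (77.1%) against 35.7% of all windows, and 2 or more copies in 23 (47.9%) against 11.3%. Both kinds of letters stood in 32 of 48 windows (66.7%) and in 9.49% of all windows. For comparison, TATAAA on either strand was found in 4 of 48 windows (8.33%) and in 12% of all. TTTAAA reads the same on both strands. A CHR match began within the 50 bases before the start in 27 of 48 genes (56.2%) and in 4.87% of all windows.

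The 120 bases before the start are printed for 7 genes, 5′ to 3′ on the gene's strand, with CHR and CCAAT letters in capitals. CCNB1 (chr5:69167030-69167149, plus strand), CCNB2 (chr15:59105026-59105145, plus), CKS1B (chr1:154974561-154974680, plus), PLK1 (chr16:23678769-23678888, plus) and KIF20A (chr5:138178992-138179111, plus) show the shared layout of CCAAT upstream of a CHR, and PLK1 holds a further CHR match before its CCAAT. SMC4 (chr3:160399530-160399649, plus) and CDC25C (chr5:138338356-138338475, minus) are shown because SMC4 was among the least and CDC25C among the most reduced genes at day 7.5.
CCNB1: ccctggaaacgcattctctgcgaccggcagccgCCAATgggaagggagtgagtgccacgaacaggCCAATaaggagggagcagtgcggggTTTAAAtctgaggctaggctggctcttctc
CCNB2: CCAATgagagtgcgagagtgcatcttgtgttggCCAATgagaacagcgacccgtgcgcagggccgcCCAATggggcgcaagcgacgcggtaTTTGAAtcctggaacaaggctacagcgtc
CKS1B: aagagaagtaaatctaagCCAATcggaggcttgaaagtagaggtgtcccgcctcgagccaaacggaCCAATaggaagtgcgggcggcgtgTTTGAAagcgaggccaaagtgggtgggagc
PLK1: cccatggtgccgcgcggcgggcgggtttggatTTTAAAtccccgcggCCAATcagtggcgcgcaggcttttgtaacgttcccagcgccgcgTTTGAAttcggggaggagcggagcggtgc
KIF20A: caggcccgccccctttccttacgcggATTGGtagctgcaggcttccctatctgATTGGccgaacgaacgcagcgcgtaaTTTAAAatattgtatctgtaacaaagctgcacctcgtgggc
SMC4: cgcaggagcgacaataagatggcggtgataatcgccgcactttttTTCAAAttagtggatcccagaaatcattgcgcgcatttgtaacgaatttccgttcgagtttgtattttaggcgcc
CDC25C: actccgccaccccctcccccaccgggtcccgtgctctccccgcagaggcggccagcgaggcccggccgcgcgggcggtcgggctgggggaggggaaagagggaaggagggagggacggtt
In the first 5 sequences CCAAT, or ATTGG on the other strand, precedes the CHR letters. SMC4 holds 1 CHR match and no CCAAT, and the CDC25C window holds neither. Neither TTTGAA nor TTTAAA was found on either strand in the windows of CCNA2, CDC25C, BUB1, UBE2S, SPC24 and AURKB. Only the first listed start of each gene was used, and other forms of the CHR were not searched. The absence of these letters therefore does not show that a gene lacks a CHR. A match of letters is a description and not a site of binding.

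Total counts per library ran from 831062 to 3574843 (median 1570954), and over 115 replicate pairs the chi-square per degree of freedom between their counts was 2.10 to 81.5. HAS2 counts overlapped between KO and WT at each day, for example 271 to 378 CPM (counts scaled to the same library total) in KO and 187 to 363 CPM in WT at day 7.5. The labels do not say which part of HAS2 the clones lack, so a count of 3′ ends cannot check the genotype. Library numbers in the labels form 3 blocks in the genotype experiment: those numbered R1 of lines WT, WT_TU and cl4 are block A, those numbered R2 of these lines block B, and all others block C.

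Libraries of block A stood apart in several mitosis genes at days 1.5 to 4.5. At day 1.5 MKI67, which encodes the Ki-67 protein of the chromosome surface, measured 178, 182 and 101 CPM in the 3 block A libraries and 685 to 874 CPM in the other 8. PLK1, a kinase of mitotic entry and exit, went the other way, with 699, 550 and 474 CPM against 129 to 183 CPM. At days 2.5 and 4.5 the WT and WT_TU libraries of block A kept high PLK1 (351 and 485 CPM, then 169 and 149 CPM), whereas cl4_R1 did not (89.0 and 15.7 CPM). Across the 55 genes, the difference between block A and the other WT libraries had a Pearson correlation of 0.53 at day 1.5, 0.50 at day 2.5 and 0.45 at day 4.5 with the GC content of the last 500 bases of the longest coding transcript (GENCODE 29). This is a description over genes that share the same libraries. MKI67, at a GC content of 50.4%, was lower in block A (-1.86 on the log2 scale at day 1.5), against the direction of that correlation. Transcript length also varied, from 613 bases (CKS2) to 12678 (MKI67), and was not compared with the differences. The parts of GC content and transcript length were not tested, and results that block A touches are given with and without that block.

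Levels of the 55 genes were highest at the days before 4.5 and lowest at day 7.5 in the WT, KO, untreated and early enzyme groups. Their summed counts made up 1.08% ± 0.249 (SD, n = 6) of all counts in WT at day 2.5, 0.388% ± 0.132 (SD, n = 6) at day 4.5 and 0.257% ± 0.0366 (SD, n = 3) at day 7.5. The same share in KO was 1.25% ± 0.131 (SD, n = 6), 0.411% ± 0.121 (SD, n = 6) and 0.110% ± 0.00574 (SD, n = 3). KO and WT libraries overlapped at days 2.5 and 4.5 and did not overlap at day 7.5. In untreated cardioids the share was 1.155% ± 0.0626, 0.545% ± 0.123 and 0.311% ± 0.0798 (SD, n = 3 each). These are bulk libraries, in which fewer dividing cells and less RNA of these genes per cell cannot be told apart.

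**Figure D1:**
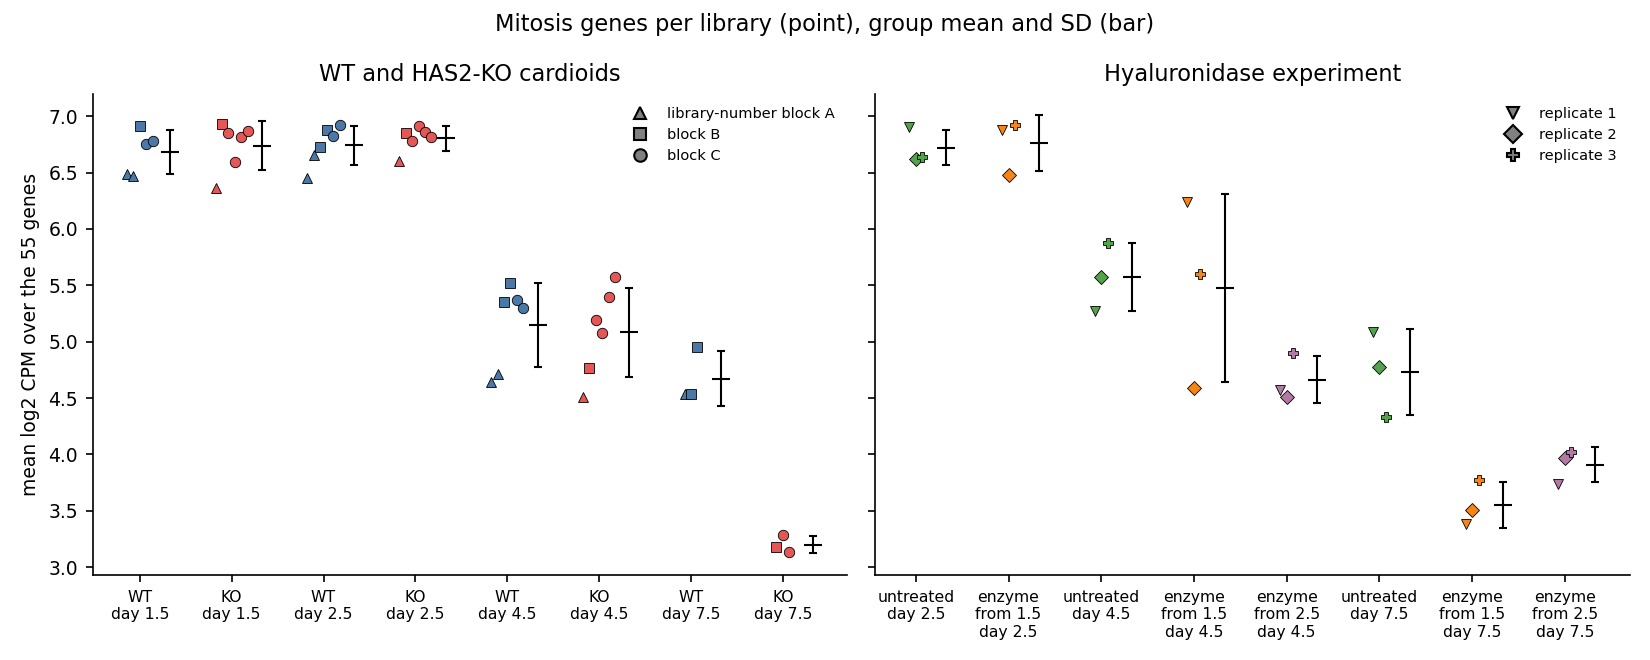
Mean log2 CPM over the 55 genes for each library (point) with the group mean and SD (bar), for the genotype experiment (left) and the enzyme experiment (right); marker shapes give the library-number block or the replicate number. WT and KO means were 6.68 and 6.74 (day 1.5), 5.15 and 5.08 (day 4.5) and 4.67 and 3.20 (day 7.5), and the 3 early enzyme libraries of day 4.5 were spread from 4.59 to 6.24.

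The genes moved together across groups. Over the 16 group means, 52 of 55 genes had a Pearson correlation above 0.9 with the mean of the other 54 (median 0.975), and the lowest were UBE2S (0.873), PRC1 (0.875) and CKS1B (0.882). UBE2S, a ubiquitin-conjugating enzyme of the anaphase-promoting complex, was low, with 0 to 13.6 CPM over all libraries. Its group means of log2 CPM ran from 0.46 (early enzyme, day 7.5) to 3.39 (KO, day 1.5). The groups share libraries and depth, so these values are descriptions.

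Between day 1.5 and day 2.5 few of the 55 genes changed. In WT 6 genes passed the edgeR quasi-likelihood test at an adjusted p under 0.05, where 30.1% of 13797 tested genes did; 3 rose and 3 fell. SPC25 and NUF2, both subunits of the NDC80 kinetochore complex, rose by 1.00 (SE 0.24) and 0.82 (SE 0.28) on the log2 scale (edgeR adjusted p = 0.00154 and 0.0222), and KIF20A, a kinesin of cytokinesis, by 0.79 (adjusted p = 0.0487). SPC25 measured 28.3, 27.1, 40.7, 32.3 and 40.8 CPM in the 5 WT libraries of day 1.5 and 49.2 to 108 CPM (median 76.3) in the 6 of day 2.5, with no overlap. CCNA2, which encodes cyclin A2, AURKB, the kinase of the passenger complex, and CDC20, an activator of the anaphase-promoting complex, fell by 0.55, 0.66 and 0.96 (edgeR adjusted p = 0.00586, 0.00723 and 0.0292).

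Some of these calls rested on single libraries. Over 17 alternatives SPC25 and AURKB kept their calls, CCNA2 lost its call in 1 (no filter on low counts) and NUF2 in 3 (without WT_TU_R1 or cl43_WT_UT of day 1.5, or WT_TU_R2 of day 2.5). KIF20A lost its call in 9, among them without WT_R1, WT_R2, cl43_WT_UT or TNT2 of day 1.5 and without WT_R1, WT_TU_R1 or TNT2 of day 2.5 (adjusted p up to 0.158). CDC20 lost its call in 8, among them without WT_R1 or WT_TU_R1 of day 1.5 and without WT_R2, WT_TU_R2, cl43_WT_UT or TNT2 of day 2.5. Without WT_R1 of day 1.5 its log2 fold change was -0.60 (edgeR adjusted p = 0.198).

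In KO 9 genes changed over the same interval (33.3% of all genes tested), 5 up and 4 down. NUSAP1, a spindle microtubule protein, rose by 0.91, RACGAP1, part of the centralspindlin complex, by 0.89 and SPC25 by 0.71 (edgeR adjusted p = 0.0109, 0.0365 and 0.0152). UBE2S, AURKA, a kinase of spindle poles, and AURKB fell by 1.19, 0.62 and 0.56 (adjusted p = 0.0256, 0.0174 and 0.0161). Over 18 alternatives RACGAP1 lost its call in 8, among them without cl4_R2, cl4_R3, cl14_R1 or cl46_R1 of day 1.5 and without cl4_R1, cl4_R2 or cl46_R1 of day 2.5. UBE2S lost its call in 5, among them without cl4_R3 or cl14_R1 of day 1.5 or cl4_R2 of day 2.5, and AURKA in 1, without cl4_R1 of day 2.5. Without the block A libraries, an alternative chosen after seeing the data, 11 genes passed in WT and 17 in KO. In those fits 4512 and 5800 genes passed in all.

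From day 2.5 to day 4.5 nearly every one of the 55 genes fell, in WT and KO alike. In WT 52 of 55 passed the test, all lower, with a median log2 fold change of -1.57, against 34.5% of all genes in either direction and an all-gene median of 0.03. In KO 53 of 55 passed, all lower, with a median of -1.69, where 30.5% of all genes passed. TTK, the kinase that starts the spindle checkpoint, ran from 42.0 to 73.5 CPM (median 58.8) in WT at day 2.5 and from 2.88 to 17.6 CPM (median 14.4) at day 4.5. The groups did not overlap, and TTK fell by 2.32 (SE 0.31) in WT and by 2.45 (SE 0.31) in KO on the log2 scale (edgeR adjusted p = 9.63e-08 and 3.47e-08).

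KIF15, a spindle kinesin, had the lowest fold change of the 55 in WT (-2.38, edgeR adjusted p = 0.000523), though its block A libraries of day 2.5 held only 39.6 and 24.7 CPM, below the 121 to 157 CPM of the other 4. KIF20A fell by 2.31 in WT (adjusted p = 1.52e-07). In KO the lowest values were those of HMMR, a spindle assembly factor (-2.52, adjusted p = 3.02e-05), TTK and RACGAP1 (-2.43, adjusted p = 1.59e-06). SMC2, a core subunit of condensin, and PRC1, which bundles microtubules of the central spindle, did not pass in either genotype: SMC2 had log2 fold changes of -0.48 and -0.56, and PRC1 -1.002 and -1.01.

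The enzyme experiment gave the same interval in other libraries. In untreated cardioids 35 of 54 tested genes fell from day 2.5 to day 4.5 and none rose (median -1.21), where 23% of 12748 genes passed. INCENP, the scaffold of the passenger complex, TTK and KIF15 fell most, by 2.05, 2.03 and 1.92 (edgeR adjusted p = 0.000448, 0.000559 and 0.0021). Without untreated replicate 1 of day 4.5, 20 genes passed (2105 in all). With the early enzyme 37 of 54 fell and none rose (median -1.14; 22.7% of all genes), led by AURKA (-1.82), BUB1, a checkpoint kinase of kinetochores (-1.81), and KIF15 (-1.80; adjusted p = 4.44e-05, 0.000483 and 0.00312). That count was 18 to 24 without early enzyme replicate 2 or 3 of day 4.5, or replicate 1 or 3 of day 2.5. In those fits 1890 to 2379 genes passed in all.

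Before day 7.5, KO and WT differed little in these genes. None of the 55 passed the edgeR test at day 1.5, where 0% of all genes did, or at day 2.5, where 0.993% did. By unadjusted p under 0.05, 1 of 55 genes passed at each of these days, where 4.28% and 10.5% of all genes did, and DESeq2 called 0 at both. Medians were 0.10 and 0.11 on the log2 scale. CDK1, the kinase of mitotic entry, measured 158 to 196 CPM (median 170) in WT and 135 to 183 CPM (median 170) in KO at day 2.5, so the genotypes overlapped.

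At day 4.5, 2 of 55 genes were lower in KO and none higher, where 3.74% of all genes passed. CCNA2 ran from 25.0 to 42.6 CPM (median 37.7) in WT and from 15.3 to 35.5 CPM (median 22.3) in KO. The groups overlapped, and the log2 fold change was -0.67 (SE 0.16, adjusted p by edgeR = 0.0109). CDK1 ran from 47.5 to 76.5 CPM (median 57.0) in WT and from 26.4 to 63.1 CPM (median 35.4) in KO, with a log2 fold change of -0.56 (SE 0.17, adjusted p = 0.0467).

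The day 4.5 count is 2 of 55 (3.64%), near the background share. CDK1 lost its call in 14 of 19 alternatives, among them leaving out any 1 library of day 4.5 other than cl46_R1 and cl51_R1. CCNA2 lost its call in 4, among them without cl51_R1, and with block C alone neither gene passed (adjusted p = 0.596 for CCNA2 and 0.404 for CDK1). Without block A, 730 genes passed in all, and 5 of the 55 were lower. They were CCNA2, CDK1, BUB1 (-0.80), ANLN, the anillin of the cleavage furrow (-0.80), and AURKA (-0.45). The last 3 had edgeR adjusted p = 0.0143, 0.00215 and 0.0174. PLK1 had log2 fold changes of -0.97 at day 2.5 and -1.02 at day 4.5 with all libraries and 0.03 and -0.01 without block A, and passed in none of these fits. No gene had a KO effect at day 4.5 that differed from that at day 2.5 (0.609% of all genes did; 3 of 55 by unadjusted p against 8.52% of all genes, 0 by DESeq2).

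At day 7.5, the comparison that chose the genes, 54 of 55 had a negative log2 fold change in KO and 44 were below -1, where 4.81% of all genes were below -1. The median was -1.65, or -1.62 with the 4 genes at the detection floor set to their bounds, and the all-gene median was -0.00. The KO libraries were all below the WT libraries in 43 of 55 genes, against 8.34% of all genes. The values that follow describe these 6 libraries. WT libraries of that day came from blocks A and B and KO libraries from blocks B and C, and within block B the mean log2 CPM was 3.18 in the KO library and 4.53 and 4.95 in the WT libraries.

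Among genes of mitotic entry, CCNA2 measured 20.0, 22.3 and 23.3 CPM in WT and 1.95, 2.88 and 3.32 CPM in KO, a log2 fold change of -3.01 (SE 0.30). CDK1 measured 25.1, 27.9 and 38.1 CPM in WT and 11.1, 7.48 and 7.30 CPM in KO (-1.85, SE 0.27). In both genes the genotypes were far apart. CDC25C, a phosphatase that activates CDK1, held 5.65, 8.37 and 7.76 CPM in WT and at most 1 count in each KO library, and was at least 3.84-fold lower against a floor of 3 counts per library. CCNB1, which encodes cyclin B1, held 13.3, 44.7 and 51.7 CPM in WT and 11.7, 28.8 and 11.9 CPM in KO, and overlapped. AURKA also overlapped, with 50.8, 78.2 and 79.5 CPM in WT and 54.7, 38.6 and 49.8 CPM in KO.

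**Figure D2:**
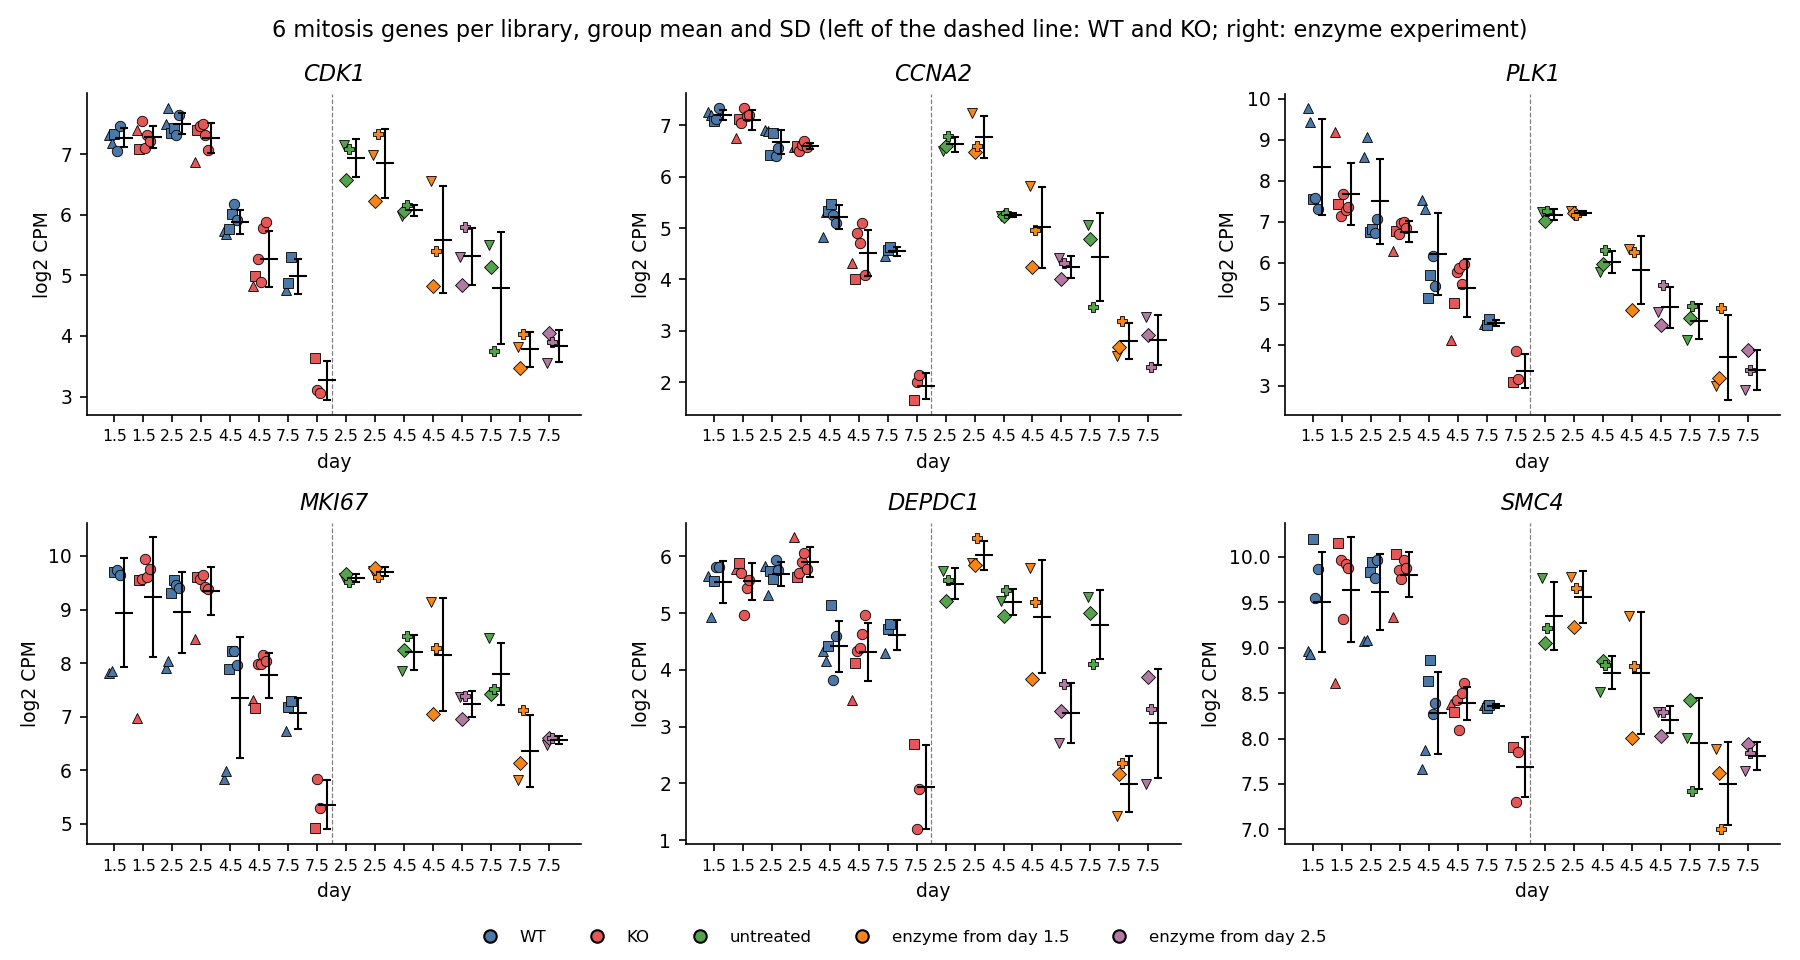
Log2 CPM of 6 mitosis genes in each library (points), with group mean and SD (bars), by day of collection; WT and KO stand left of the dashed line and the enzyme experiment right of it. CCNA2 and DEPDC1 show the widest gap between WT and KO at day 7.5, SMC4 the narrowest of the 6, and PLK1 and MKI67 the block A libraries (triangles) apart at days 1.5 to 4.5.

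Checkpoint and exit genes followed. MAD2L1, which blocks CDC20 at unattached kinetochores, measured 11.3, 9.77 and 8.41 CPM in WT and 0.651, 2.88 and 1.99 CPM in KO. BUB1 measured 14.4, 24.4 and 45.9 CPM in WT and 5.86, 12.1 and 9.29 CPM in KO, so every KO library was lower. UBE2C, which loads ubiquitin for the anaphase-promoting complex, had a log2 fold change of -2.62, PTTG1, the securin that anaphase destroys, -2.07, and CDC20 -1.65. UBE2S was the 1 gene with a positive value (0.41, SE 0.78), at 0 to 2.60 CPM in these libraries, and its sign turned without WT_R2 (-0.11) and without cl4_R2 (-0.03).

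Kinetochore and passenger genes had role medians of -1.94 and -1.74. NDC80, the outer kinetochore subunit that binds microtubules, measured 16.4, 14.0 and 28.4 CPM in WT and 3.90, 2.30 and 5.97 CPM in KO (-2.31, SE 0.41). CENPA, the histone of the centromere, held at most 2 counts in each KO library and was at least 2.45-fold lower. AURKB measured 27.7, 18.8 and 23.9 CPM in WT and 6.51, 9.78 and 6.64 CPM in KO. All KO libraries were below all WT libraries in these genes.

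Kinesins ran from -3.20 to -0.63. KIF2C, which depolymerises microtubules at kinetochores, measured 13.9, 11.9 and 14.9 CPM in WT and 1.30, 2.30 and 0.664 CPM in KO (-3.20, SE 0.40). KIF15 measured 10.3, 17.4 and 19.4 CPM in WT and 11.1, 8.06 and 11.9 CPM in KO (-0.63, SE 0.84) and overlapped. Spindle proteins had a median of -1.97: TPX2, which activates AURKA at the spindle, measured 38.5, 49.6 and 89.2 CPM in WT and 19.5, 33.4 and 15.9 CPM in KO.

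Condensin subunits differed among themselves. The core subunits SMC2 and SMC4 had log2 fold changes of -0.28 (SE 0.41) and -0.66 (SE 0.33), and NCAPD2, a regulatory subunit, -0.37 (SE 0.26), whereas NCAPG, another regulatory subunit, had -2.21 (SE 0.30). SMC2 measured 137, 144 and 145 CPM in WT and 113, 108 and 139 CPM in KO, which overlapped. TOP2A, the topoisomerase that untangles sister chromatids, measured 310, 414 and 510 CPM in WT and 101, 190 and 136 CPM in KO. MKI67 measured 102, 142 and 154 CPM in WT and 28.6, 56.4 and 39.2 CPM in KO.

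Of the cytokinesis genes, ANLN measured 33.4, 39.1 and 51.7 CPM in WT and 9.11, 10.9 and 15.9 CPM in KO (-1.82, SE 0.35). PRC1 and RACGAP1 were at 3 counts or fewer in every KO library and at least 3.06-fold and 2.18-fold lower. DEPDC1, whose role in mitosis is less defined, measured 18.0, 25.1 and 26.5 CPM in WT and 5.21, 1.15 and 2.65 CPM in KO (-2.97, SE 0.42).

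The step into day 7.5 shares these libraries and is likewise described without a test. From day 4.5 to day 7.5 the 55 genes had a median log2 fold change of -0.57 in WT, with 8 below -1 where 8.07% of all genes were. In KO the median was -2.20, with 50 below -1 where 8.88% of all genes were.

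The enzyme experiment used none of the libraries that chose the genes. At day 2.5, after 1 day of early enzyme, none of 54 tested genes differed from untreated (1.15% of all genes did; 0 by unadjusted p under 0.05, where 9.22% of all genes passed, and 0 by DESeq2), with a median of 0.08. UBE2S did not reach the count filter in this experiment and was not tested.

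At day 4.5 the early enzyme gave libraries that disagreed between lines. CDK1 measured 106, 30.2 and 46.6 CPM with early enzyme and 64.8, 71.0 and 75.8 CPM untreated, in the order of replicates 1, 2 and 3. TOP2A measured 656.5, 927.1 and 1271.3 CPM untreated and 1989.7, 477.1 and 1079.6 CPM with early enzyme. Within lines, replicate 1 had all 55 genes above its untreated partner, replicate 2 had 54 below it and replicate 3 had 44 below it. None of 54 passed the test (3.48% of all genes did; 0 by unadjusted p, where 13.8% of all genes passed, and 0 by DESeq2), the median was 0.00, and no gene was lower in every library (11.1% of all genes were).

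**Figure D3:**
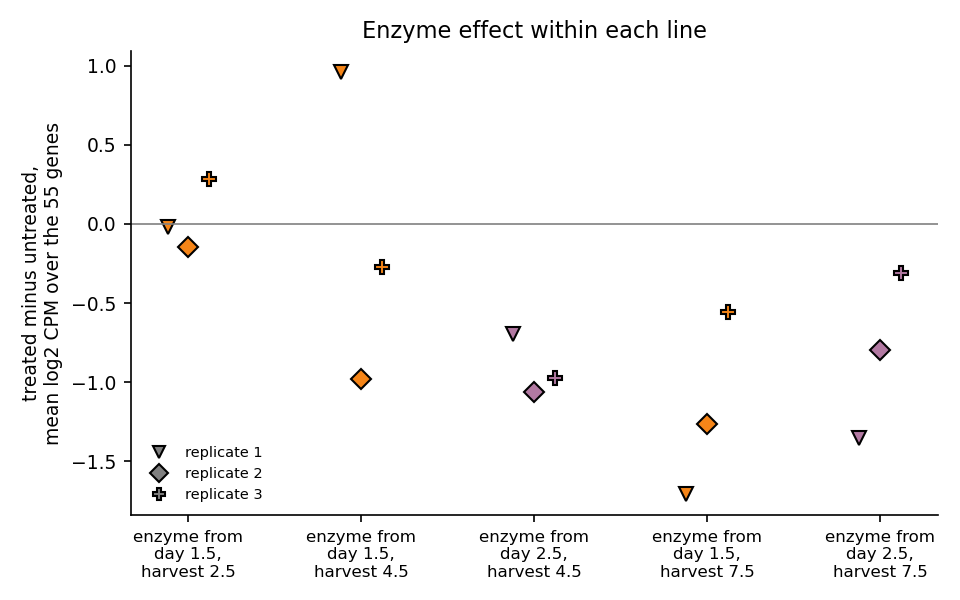
Difference in mean log2 CPM over the 55 genes between enzyme-treated and untreated libraries of the same line (replicate number by marker), for each enzyme start and day of collection. At day 4.5 the early enzyme differences were 0.96, -0.98 and -0.27, whereas all 9 differences of the late enzyme at day 4.5 and of both enzyme groups at day 7.5 lay below 0.

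With the late enzyme at day 4.5 all 3 lines lay lower. The within-line differences of mean log2 CPM were -0.70, -1.06 and -0.97, with 48, 53 and 54 of 55 genes lower. In the fit 53 of 54 genes were negative with a median of -0.94, and 43 of 54 were below every untreated library, against 8.51% of all genes. Only BUB1B, which encodes the checkpoint protein BUBR1, passed the adjusted test, where 0.22% of all genes did. BUB1B measured 25.9, 59.5 and 60.5 CPM untreated and 15.1, 15.6 and 11.5 CPM with late enzyme, -1.81 on the log2 scale (SE 0.35, adjusted p by edgeR = 0.0228).

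An unadjusted p under 0.05 was found in 33 of 54 genes, against 7.02% of all genes. DESeq2 called 3 of the 54 (90 genes in all), and the fit of these libraries alone called 17 (201 in all). BUB1B was no longer called when any 1 of 5 libraries was left out, untreated replicates 2 and 3 and each late enzyme replicate (adjusted p 0.0920 to 0.188). BUB1B also shares its 3′ end with a readthrough transcript to PAK6 on the same strand, so its count is uncertain.

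Compared directly at day 4.5, the early enzyme group was higher than the late one in 54 of 54 genes. That count is by the sign of the fold change, and the median was 1.00. These genes move together, and the gap differed between lines. Mean log2 CPM was 6.24, 4.59 and 5.60 with early and 4.58, 4.51 and 4.90 with late enzyme (replicates 1, 2 and 3). Without early enzyme replicate 1 the median was 0.55. In the test with all libraries 1 gene passed (0.361% of all genes). TTK measured 49.0, 14.7 and 23.3 CPM with early and 7.19, 7.81 and 7.05 CPM with late enzyme, without overlap, 1.94 on the log2 scale (SE 0.44, adjusted p by edgeR = 0.0493). With the line as a block, 2 genes passed (96 in all), and DESeq2 called 10 (167 in all). Without early enzyme replicate 2, 27 genes passed (291 in all). Without any other single library none did, and adjusted p of TTK was then 0.110 to 0.523.

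At day 7.5 the early enzyme group was lower in 15 of 54 genes and higher in none (edgeR adjusted p under 0.05), where 3.33% of all genes passed in either direction. The median log2 fold change was -1.26, or -1.24 with the 2 genes at the floor set to their bounds, beside an all-gene median of 0.02. All 3 treated libraries lay below all untreated ones in 36 of 54 genes, against 8.74% of all genes. The 15 genes were DEPDC1, TTK, CCNB2, ANLN, CDCA8, CCNA2, BUB1B, NDC80, KIF14, BUB1, DLGAP5, CENPF, TPX2, MKI67 and CENPE, from every role except the exit genes.

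DEPDC1 measured 37.5, 31.3 and 15.6 CPM untreated and 1.63, 3.60 and 4.18 CPM with early enzyme, -3.21 on the log2 scale (SE 0.54, adjusted p by edgeR = 0.00117). TTK measured 16.1, 5.74 and 11.9 CPM untreated and 0.815, 4.31 and 1.39 CPM treated (-2.38, SE 0.58, adjusted p = 0.0197). CCNB2, which encodes cyclin B2, measured 18.7, 17.9 and 6.68 CPM untreated and 7.34, 1.44 and 1.39 CPM treated (-2.23, SE 0.49, adjusted p = 0.0108). DEPDC1 and TTK did not overlap, and CCNB2 did. DEPDC1 kept its call in 11 of 11 alternatives. TTK lost its call without untreated replicate 1 or 3 or early enzyme replicate 1 or 3. CCNB2 lost its call in 4 of 11 alternatives, without untreated replicate 1, without early enzyme replicate 2 or 3, and with only the libraries compared (adjusted p 0.0507 to 0.216).

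CCNA2 measured 32.1, 26.8 and 9.64 CPM untreated and 4.89, 5.75 and 8.36 CPM with early enzyme (-1.92, adjusted p = 0.0131). NDC80 measured 31.2, 27.4 and 20.8 CPM untreated and 4.08, 7.19 and 12.5 CPM treated (-1.81, adjusted p = 0.0175). Neither overlapped. The kinesin KIF14 (-1.76, adjusted p = 0.0081), the passenger subunit CDCA8 (-2.0002, adjusted p = 0.0189) and the kinetochore proteins CENPE (-1.40, adjusted p = 0.00603) and CENPF (-1.54, adjusted p = 0.00888) were lower too, all by edgeR. CENPA held at most 1 count in each treated library and was at least 1.23-fold lower.

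Genes that did not pass included CDK1, with 43.7, 34.5 and 11.9 CPM untreated and 13.9, 10.8 and 16.03 CPM with early enzyme, and TOP2A, with 860, 479 and 574 CPM and 174, 178 and 515 CPM. PLK1 measured 16.1, 24.2 and 28.9 CPM untreated and 7.34, 8.63 and 30.0 CPM treated, and overlapped through replicate 3. SMC2 and SMC4 measured 115 to 170 CPM and 165 to 347 CPM untreated and 92.7 to 146 CPM and 133 to 253 CPM treated. SMC2 and SMC4 thus overlapped at day 7.5, as SMC2 did between KO and WT.

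The size differed between lines. Within-line differences of mean log2 CPM with early enzyme were -1.71, -1.27 and -0.55 in replicates 1, 2 and 3, with 54, 53 and 44 of 55 genes lower. Untreated replicate 1 had the highest mean (5.09) and untreated replicate 3 the lowest (4.33). Without untreated replicate 1 the count was 2, without early enzyme replicate 1 it was 4 and without early enzyme replicate 2 it was 7. In those fits 192, 145 and 252 genes passed in all. With DESeq2 the count was 24 (646 genes in all).

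The late enzyme at day 7.5 gave 2 genes lower and none higher (0.659% of all genes passed). CCNA2 measured 8.30, 6.71 and 3.93 CPM against 32.1, 26.8 and 9.64 CPM untreated (-1.89, SE 0.43, edgeR adjusted p = 0.0390). NCAPD2 measured 7.61, 10.1 and 15.1 CPM against 33.0, 27.4 and 34.1 CPM (-1.58, SE 0.31, adjusted p = 0.0192). Neither overlapped with untreated. The median over 54 genes was -1.002, 28 of 54 were below every untreated library (8.32% of all genes were), and 29 had an unadjusted p under 0.05 (13.5% of all genes did).

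DESeq2 called 11 of the 54 in that comparison (199 genes in all). Over 11 alternatives CCNA2 lost its call in 5 and NCAPD2 in 6. The count was 0 without untreated replicate 1 or without any 1 of the 3 late enzyme libraries. It was 4 without untreated replicate 2 (377 genes in all). Both enzyme groups were compared with the same 3 untreated libraries. Compared with each other at day 7.5, no gene differed between the early and late enzyme (0.00784% of all genes did; 6 of 54 by unadjusted p against 5.64% of all genes, 0 by DESeq2), with a median of -0.26.

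**Figure D4:**
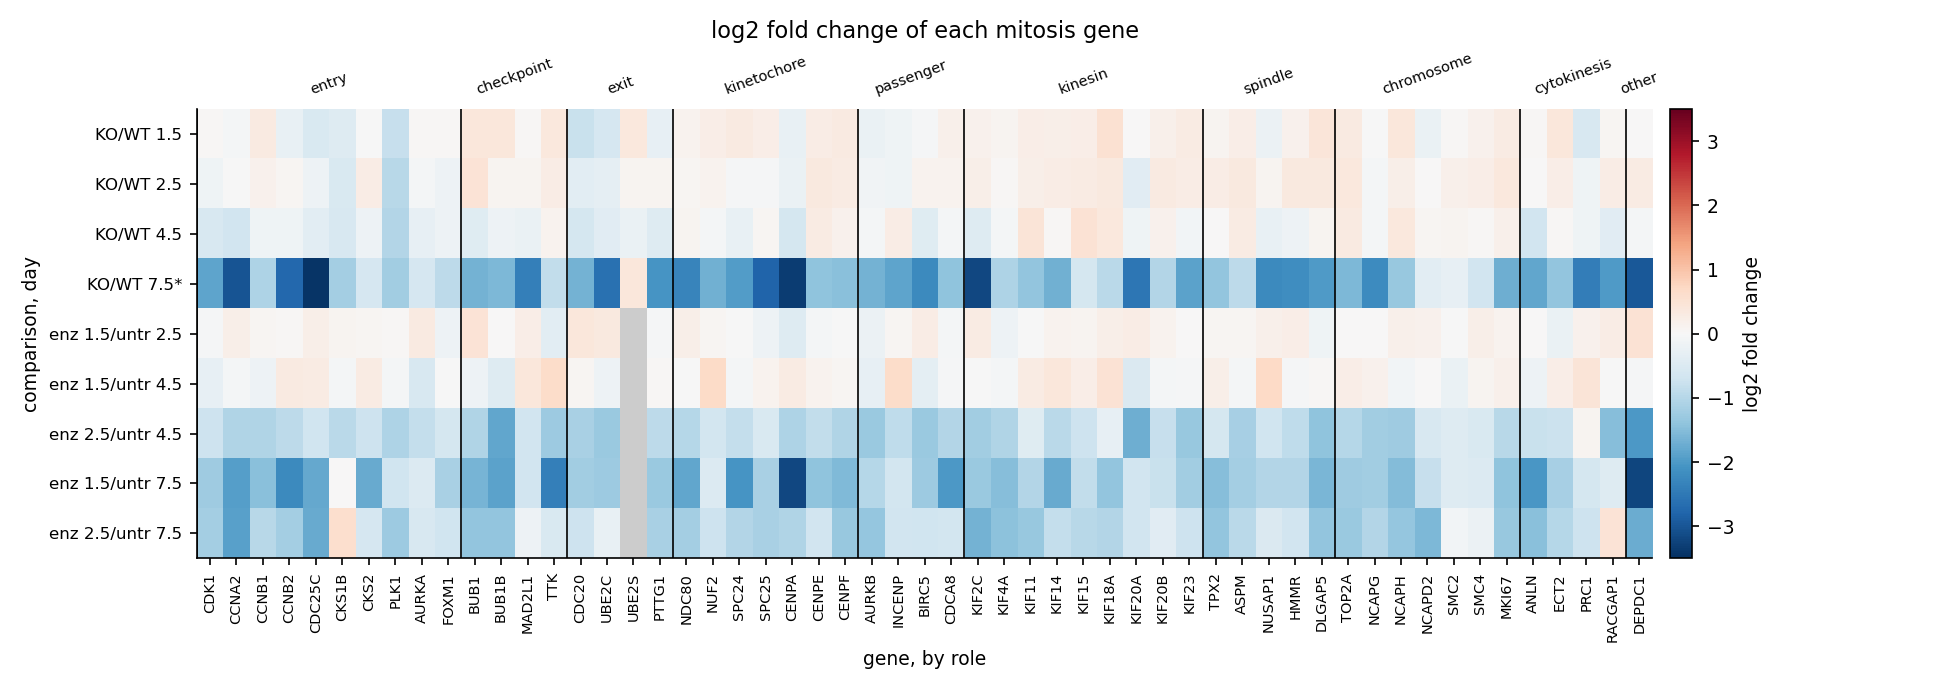
Log2 fold change of each gene (columns, by role) in each comparison (strips, with the day of collection last); blue is lower in KO or with enzyme, red higher, and grey not tested. The asterisk marks the comparison that chose the genes. The strip for the late enzyme at day 4.5 and both strips for day 7.5 of the enzyme experiment are blue in 53, 53 and 52 of 54 genes, and fitted values of genes at the floor, such as CENPA, depend on the prior count.

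Steps into day 7.5 within the enzyme experiment could be tested. In untreated cardioids 7 of 54 genes fell from day 4.5 and none rose (median -0.76; 6.39% of all genes passed). KIF20A measured 19.1, 22.2 and 42.4 CPM at day 4.5 and 5.35, 7.02 and 2.97 CPM at day 7.5 and fell by 2.30 (edgeR adjusted p = 0.00802). BIRC5, the survivin of the passenger complex, fell by 1.83 and UBE2C by 1.61 (adjusted p = 0.0124 and 0.0271). Over 11 alternatives these 3 genes lost their calls in 2, 3 and 4. The count of 7 became 2, 4, 0 and 1 without replicate 1 of day 7.5, replicates 2 and 3 of day 4.5, and replicate 3 of day 7.5.

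With the early enzyme 50 of 54 genes fell from day 4.5 to day 7.5 and none rose (median -2.16; 8.17% of all genes passed). CCNB2 measured 73.9, 42.3 and 68.7 CPM at day 4.5 and 7.34, 1.44 and 1.39 CPM at day 7.5, -4.13 on the log2 scale (SE 0.44, adjusted p by edgeR = 3.04e-06). TTK fell by 3.59 (edgeR adjusted p = 0.000148). At day 7.5 CCNB2 and TTK were under 10 counts in each of these libraries. CENPA passed as well (adjusted p = 0.0127), from 14.3, 3.46 and 10.5 CPM to at most 1 count. AURKA, CKS1B, KIF15 and SMC2 did not pass. Without early enzyme replicate 1 of day 4.5 the count was 26 (398 genes in all).

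With the late enzyme 2 genes fell over that step (1.93% of all genes passed; median -0.74), CCNB2 by 1.86 and NCAPD2 by 1.51 (edgeR adjusted p = 0.0154 and 0.00964), and they lost their calls in 3 and 2 of 11 alternatives. With the line as a block 6 genes passed (385 in all). Without late enzyme replicate 1 or 3 of day 7.5 or replicate 3 of day 4.5 the counts were 0, 1 and 0. In those fits 88, 114 and 72 genes passed in all. Whether the early enzyme effect at day 7.5 differed from that at day 4.5 was tested directly: no gene passed (0.0157% of all genes did). The median of the difference was -1.34, and 31 of 54 genes had an unadjusted p under 0.05 (8.28% of all genes did). DESeq2 called 5 in that test (48 genes in all). Without early enzyme replicate 2 of day 4.5 edgeR called 9 (56 in all), and without untreated replicate 2 of day 7.5 it called 1 (18 in all).

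Other genes of the same pathways are given by list. KO values at day 7.5 come from the comparison in which proliferation genes were seen to be lower. For these lists too they are a description, with no test and no independent support. Of 48 further mitosis genes, 43 had negative values in KO at day 7.5 (median -1.31), among them ARHGAP11A, a GTPase-activating protein of cytokinesis (-2.68), and KNL1, the kinetochore scaffold of the checkpoint (-1.33). With early enzyme at day 7.5 the median over 46 tested genes was -0.89 and 3 passed, where 3.33% of all genes did. They were KNL1 (-1.52), CKAP2, a spindle protein (-1.24), and SKA2, a kinetochore coupler (-0.87, edgeR adjusted p = 0.0087, 0.00888 and 0.0126). Subunits of the anaphase-promoting complex had medians of -0.12 in KO and -0.23 with early enzyme, cohesin genes -0.05 and -0.04, and none of the 15 and 12 tested genes of these lists passed with early enzyme.

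Of 30 replication genes, 29 were negative in KO at day 7.5 (median -0.91). With early enzyme at day 7.5, 4 were lower and none higher (median -0.88). Of all genes, 3.33% passed in that comparison and 0.659% with late enzyme at day 7.5. The 4 were TYMS, an enzyme of thymidine nucleotide supply (-1.91), CDC6, which loads the replicative helicase (-1.95), MCM3, a subunit of that helicase (-0.96), and TK1, thymidine kinase (edgeR adjusted p = 0.00488, 0.00888, 0.00571 and 0.0183). TK1 was at 3 counts or fewer in each treated library, so its fitted fold change is not given. Among 13 tested genes of the DREAM and MuvB complexes the median was -0.12 in KO and -0.25 with early enzyme, and MYBL2, the member that is itself a cell cycle gene, was lower with early and late enzyme (-1.40 and -1.76, adjusted p = 0.0456 and 0.0386). Of 12 genes that restrain or time mitotic entry, the CDK1 inhibitory kinases PKMYT1 and WEE1 were lower with early enzyme (-2.39 and -0.87, adjusted p = 0.00571 and 0.0313). CDKN1A, the CDK inhibitor p21, was lower in KO at day 4.5 (-1.96, edgeR adjusted p = 0.000538), where 3.74% of all genes passed.

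Outside these lists, the genes whose 16 group means were most like the mean of the 55 were HMGB2 (Pearson r = 0.992), FANCD2 (0.989), CIP2A (0.988), DTL (0.988), CDCA2 (0.986), GINS4 (0.986), CDC25B (0.984), FANCI (0.984), CENPH (0.982) and CLSPN (0.981).

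Markers of cell types moved with some of these differences, and also in a comparison where the mitosis genes differed little. The mean log2 CPM of 10 cardiomyocyte markers was 5.51, 7.14 and 6.33 with early enzyme at day 4.5 and 10.08, 8.63 and 8.86 untreated, and the library with the highest mitosis level (replicate 1) had the lowest cardiomyocyte level and, at 3.65, the highest level of 8 pluripotency markers in that group. NPPA was at 0 in the early enzyme group. With late enzyme at day 4.5 the cardiomyocyte values were 8.92, 8.04 and 7.95, and 8 endoderm markers measured 2.67, 1.90 and 1.63 against 4.04, 2.83 and 2.69 untreated, with AFP and FGB at 0. At day 7.5 they were 8.77, 8.66 and 9.21 with early enzyme and 10.52 to 11.20 untreated, all 10 markers being detected. With late enzyme at day 7.5 they were 10.68, 9.39 and 10.05. In KO at day 4.5 the cardiomyocyte values ran lower, from 7.43 to 9.36 against 8.82 to 10.36 in WT, with overlap. The mean log2 CPM of the mitosis genes in the same libraries was 4.51 to 5.57 in KO and 4.64 to 5.52 in WT.

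In KO at day 7.5 cardiomyocyte markers measured 10.56, 10.68 and 10.41 against 10.95, 10.75 and 11.05 in WT, and 8 endoderm markers measured 4.27, 5.10 and 4.24 against 3.04, 3.14 and 3.63. With early enzyme at day 7.5 the endoderm markers measured 1.62, 1.23 and 2.20 against 4.48, 3.36 and 3.09 untreated, with AFP at 0, and with late enzyme 1.35, 1.38 and 1.54, with FGB, FOXA2 and TTR at 0. Endoderm markers at day 7.5 were thus higher in KO than in WT and lower with either enzyme start than in untreated cardioids. The part of cell type make-up in the mitosis values was not tested.

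The strand setting of the counting is not given in the sources used here, and several genes share a 3′ end with a neighbour. Opposite-strand neighbours reach the 3′ end of CCNA2 (EXOSC9), PLK1 (ERN2), KIF2C (AL592166.1), KIF20A (CDC23), HMMR (HMMR-AS1), NCAPG (LCORL), SPC25 (NOSTRIN) and RACGAP1 (AQP6), and CKS1B, UBE2C, AURKA, UBE2S and NCAPG have processed copies in the genome. Counts of these genes could include reads of the neighbour or the copy.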

How the data were processed

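RNA of 65 libraries, each of 8 pooled cardioids, was sequenced with a kit that reads transcript 3′ ends, per the labels' protocols. The deposited table holds whole-number counts of reads per gene, which the authors made with featureCounts (Subread 1.6.2) on hg38/GRCh38, per the submitters' processing notes; the aligner and the strand setting are not given in the sources used here. No normalization had been applied, and 4 columns that matched no sample's labels were not used. All 58735 gene rows were found in GENCODE 29, and 58207 have a symbol. The total per library sets the precision: genes below about 10 counts carry large counting error.

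Counts were tested with edgeR 4.0.16 (quasi-likelihood test, TMM scaling, filterByExpr with a minimum count of 10, robust) in R 4.3.3 with limma 3.58.1, separately for the genotype and the enzyme experiment, with every group of the experiment in 1 fit. Benjamini-Hochberg adjustment covered every gene in the fit, calls were made at 0.05, and DESeq2 1.42.0 was an alternative. Levels are CPM on library totals, or log2 CPM with TMM scaling and a prior count of 2. Where no library of a group exceeded 3 counts, the fold is a bound against a floor of 3 counts per library. The scripts were tested on simulated data. Tables and figures were made with Python 3.11.15, pandas 2.3.3 and matplotlib 3.10.9.

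The 55 genes, their roles and the other gene lists were chosen with earlier results of these data known. Named genes were up to 3 each way with the largest change among those past the threshold in each tested comparison, the 5 lowest and 3 highest at day 7.5 in KO, fixed examples of each role, up to 2 each way of the other lists, and the 10 genes most alike in profile. Other genes were named after their values were seen.

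Replicate numbers of the enzyme experiment mark the same cell line and so pair the libraries. As a check, deviations from group means correlated above 0.1 in 15 of 21 same-line pairs (lowest -0.15).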

Additional observations from a re-analysis of the deposited data

Results flagged for a closer look

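In the 4 to 10 library groups tested, 11 of 78 values stood apart from the rest of their group by a gap larger than Dixon's 95% limit, which chance reaches in about 1 of 20 groups. All 11 belong to KO library cl4_R1, of block A. At days 1.5 to 4.5 KO groups hold 1 library of block A and WT groups 2, and libraries that stand apart together can escape this test. At day 1.5 its log2 CPM was 9.19 for PLK1 (others 7.14 to 7.69) and 8.52 for CDC20 (others 7.06 to 7.35), above the others. In the same library BUB1 was 5.06 (others 6.83 to 7.27), TOP2A 8.36 (others 10.65 to 11.27) and MKI67 6.97 (others 9.55 to 9.94), below them. At day 2.5 KIF2C was above the others at 6.51 (5.68 to 5.96), whereas BUB1 at 5.54 (6.67 to 6.87), NDC80 at 6.24 (6.67 to 6.86), TOP2A at 10.43 (11.22 to 11.45) and MKI67 at 8.46 (9.39 to 9.65) were below. At day 4.5 NDC80 was 3.88 (4.77 to 5.12).

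TTK differed between the early and the late enzyme at day 4.5 by 1.94 on the log2 scale (edgeR adjusted p = 0.0493), with the 3 early libraries above the 3 late ones.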

How the results depend on the processing

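Counts of the 55 genes called are given as alternative against the value reported, and the cause of each change was not tested. With RLE size factors the count was 1 for KO at day 4.5 (2 reported) and 0 for early against late enzyme at day 4.5 (1). With no filter on low counts it was 0 for KO at day 4.5, 3 for the WT step to day 2.5 (6), 15 for late enzyme at day 4.5 (1), 26 and 18 for early and late enzyme at day 7.5 (15 and 2), 16 for early against late at day 4.5, 21 and 13 for the untreated and late enzyme steps to day 7.5 (7 and 2), and 14 for the change of the early enzyme effect (0). DESeq2 gave 3, 24, 11, 10, 11 and 5 for late enzyme at day 4.5, early and late at day 7.5, early against late at day 4.5, the late enzyme step to day 7.5 and the change of the early effect. With only the libraries compared in the fit the counts were 0 for KO at day 4.5, 17 for late enzyme at day 4.5, 4 and 0 for early and late at day 7.5, 0 for early against late at day 4.5, and 16, 28 and 17 for the early enzyme steps to days 4.5 and 7.5 (37 and 50) and the late enzyme step to day 7.5. With alternatives chosen after seeing the data, block C alone gave 1 for KO at day 2.5 (0) and 0 at day 4.5, and leaving out block A gave 5 for KO at day 4.5, 11 and 17 for the WT and KO steps to day 2.5 (6 and 9) and 1 for the change of the KO effect (0).

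Leaving out 1 library gave 1 to 2 for KO at day 4.5, 4 to 6 and 6 to 10 for the WT and KO steps to day 2.5, 0 to 1 for late enzyme at day 4.5, 2 to 19 and 0 to 4 for early and late enzyme at day 7.5, 0 to 27 for early against late at day 4.5, 20 to 32 and 0 to 8 for the untreated steps, 18 to 49 and 26 to 52 for the early enzyme steps, 0 to 2 for the late enzyme step and 0 to 9 for the change of the early effect. The steps from day 2.5 to day 4.5 gave 50 to 52 (WT) and 52 to 53 (KO), and 39 to 47 genes lay below -1 in KO at day 7.5. UBE2S turned sign there, to -0.11 without WT_R2 and -0.03 without cl4_R2, and ranged up to 1.40 without WT_TU_R2.

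With the replicate block, the enzyme experiment gave 2 for early against late at day 4.5 and 6 for the late enzyme step to day 7.5, and 19 and 3 for early and late at day 7.5. In the genotype experiment library numbers are shared only as numbers: deviations correlated above 0.1 in 28 of 37 pairs, and the block gave 0, 0 and 3 for KO at days 1.5, 2.5 and 4.5, 9 and 13 for the steps to day 2.5, 54 and 54 for those to day 4.5, and 46 genes below -1 in KO at day 7.5. At totals of 831062 to 3574843 counts, genes under 3 counts, such as CENPA in KO at day 7.5, have no usable fitted fold change.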
